A study of Mus musculus with 6 samples.

Results

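RGS proteins are regulators of G protein signalling, and 9 of their genes were examined in splenic B cells: Rgs1, Rgs2, Rgs3, Rgs10, Rgs13, Rgs14, Rgs16, Rgs18 and Rgs19. They were taken by gene symbol, and each was read from the probeset that carried this symbol alone and had the highest mean over all 6 arrays. Of the 9 genes, 8 were measured in this way, among 19938 genes in all, and Rgs10 was not analysed here. The list was chosen by gene family with the p80HT and WT signals of these same arrays already known, so the differences between genotypes are given as a description. A threshold applied to all genes is also reported for them below, and nothing is read from it for the listed genes.

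The 3 p80HT mice carried a transgene, a human coding sequence for a lymphoma-derived NF-κB2 protein that lacks part of its C terminus, placed under the H-2Kb promoter and the Ig μ enhancer for expression in both T and B lymphocytes, and all 3 had M-protein, a monoclonal immunoglobulin, in serum. The 3 WT mice were their littermates, and all 6 mice were 1 year old and on a mixed C57BL/6J x SJL/J background. Positivity for M-protein chose the p80HT mice, and the tumour stage of each mouse is not given in the sources used here. Spleen cells were selected on magnetic beads with an antibody to B220, the CD45 isoform of mouse B cells, and the RNA of each mouse was read on 1 Affymetrix Mouse Gene 1.0 ST array, in log2 signal.

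G protein-coupled receptors switch on heterotrimeric G proteins by loading GTP onto the α subunit, and the signal ends when this GTP is hydrolysed. RGS proteins share a domain that speeds up the hydrolysis and so shorten the response. In B cells the best known of these signals come from chemokine and lipid receptors that guide the cells through the follicle, the germinal centre and the marginal zone, and Rgs1 and Rgs13 are known to blunt chemokine responses there. Most of the genes examined belong to the R4 family of mostly small RGS proteins (Rgs1, Rgs2, Rgs3, Rgs13, Rgs16 and Rgs18). Apart from the longer proteins of Rgs3, these consist of little more than the RGS domain. Rgs10 and Rgs14 belong to the R12 family, and Rgs19 to the RZ family.

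Of the R4 genes examined, 4 lie in 1 cluster on mouse chromosome 1. In the RefSeq annotation the order of protein-coding genes there is Rgs2, Rgs13, Rgs1, Rgs21 and Rgs18, and Rgs16 lies elsewhere on the same chromosome, beside Rgs8. The promoters of Rgs13 and Rgs2 are shown as those of 2 neighbours for which the groups did not overlap and whose sequences differ in composition. The groups also did not overlap for Rgs16 and Rgs19, whose windows are not printed here, and for Rgs14, which has none. The choice was made with the array values known. Each window runs from 250 bases before to 50 bases after the annotated start, in the direction of the gene, and is taken from RefSeq on GRCm38.p6. The Rgs13 window is chr1:144177323-144177622 on the minus strand, and capitals mark its match to the κB consensus, the site that NF-κB dimers bind. The Rgs2 window is chr1:144004100-144004399 on the minus strand and holds no such match.
Rgs13: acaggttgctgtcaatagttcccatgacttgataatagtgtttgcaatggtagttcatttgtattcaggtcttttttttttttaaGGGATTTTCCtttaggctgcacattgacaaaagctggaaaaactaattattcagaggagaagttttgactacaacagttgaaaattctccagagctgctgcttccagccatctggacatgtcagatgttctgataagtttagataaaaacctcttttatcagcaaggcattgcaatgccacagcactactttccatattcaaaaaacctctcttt
Rgs2: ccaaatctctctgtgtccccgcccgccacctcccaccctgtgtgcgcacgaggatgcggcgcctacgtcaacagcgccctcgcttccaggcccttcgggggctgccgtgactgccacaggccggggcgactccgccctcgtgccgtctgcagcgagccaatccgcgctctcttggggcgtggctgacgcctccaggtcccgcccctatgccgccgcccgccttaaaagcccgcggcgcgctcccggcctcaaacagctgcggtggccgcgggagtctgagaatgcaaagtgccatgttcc
The Rgs13 window had a G+C content of 36.7% and 0 CpG dinucleotides, and 5.78% of all 32851 mouse promoter windows had as little G+C. The Rgs2 window had a G+C content of 70.0% and 33 CpG dinucleotides, against a median G+C content of 52.7% over all windows. RefSeq windows were at hand for 6 of the 9 genes, 9 windows in all, because Rgs3 has 2 and Rgs19 has 3, and none was given for Rgs1, Rgs14 or Rgs18. The κB consensus was searched on both strands and was present in 1 of the 9 windows, that of Rgs13, where it starts at position -165 relative to the start site, and in 8.46% of all windows. The E-box CAGGTG, also searched on both strands, was in 0 of the 9 and in 20.2% of all windows, and the TATA motif TATAAA in 2 of the 9, both of Rgs3, and in 13.6% of all windows. A match in these letters is a description of the sequence and not a measured binding site.

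Rgs13 had the widest gap between the genotypes among the 8 measured genes, and Rgs2, Rgs14 and Rgs19 were lower on every p80HT array than on any WT array. Rgs16 was higher on every p80HT array. Rgs1, Rgs3 and Rgs18 overlapped. An array value was called near background where it did not exceed the 95th percentile of 1027 olfactory receptor genes on the same array, which lay at 7.07 to 7.68 on the p80HT arrays and at 7.31 to 7.58 on the WT arrays. By this measure 7 of the 8 genes were above background on all 6 arrays, and the exception was Rgs13.

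**Figure D1:**
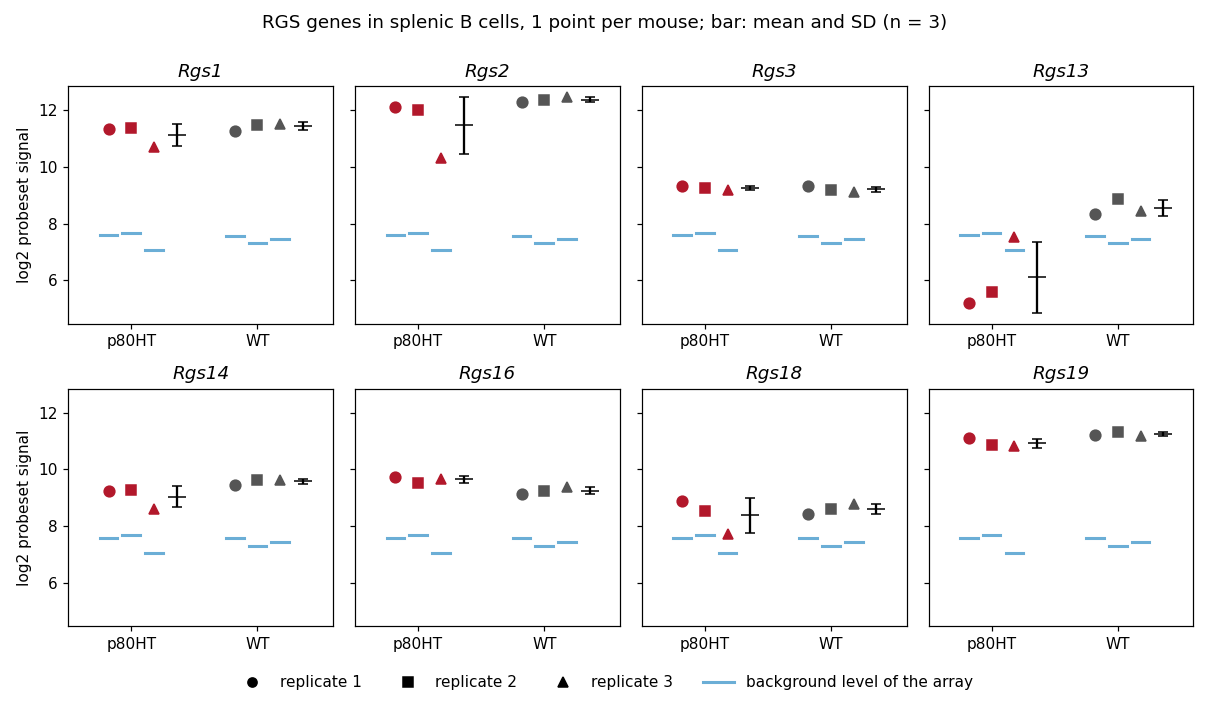
Log2 signal of the 8 measured RGS genes in p80HT (left in each panel) and WT B cells (right), with 1 point per mouse and, right of each group, its mean with an error bar of 1 SD (n = 3). Blue lines give the background level of each array, and only Rgs13 on p80HT arrays 1 and 2 lies under it.

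Rgs13 encodes a small R4 protein known from germinal centre B cells and mast cells. It read 5.21, 5.59 and 7.53 log2 units on p80HT arrays 1, 2 and 3, against 8.34, 8.86 and 8.45 on WT arrays 1, 2 and 3. On p80HT arrays 1 and 2 the signal lay below even the median of the olfactory receptor genes, at 5.81 and 5.87, so the gene was near background in these mice, whereas p80HT array 3 and all WT arrays were above background. The group means were 6.11 ± 1.25 in p80HT and 8.55 ± 0.27 in WT (log2 signal, SD, n = 3 each), a measured difference of -2.44. With each p80HT value near background set to the background level of its array, Rgs13 was at least 1.93-fold lower in p80HT. The highest p80HT array was still 0.81 below the lowest WT array. Without p80HT array 3 the measured difference was -3.15, between p80HT values that were all near background and WT values that were not, and Rgs13 was then at least 1.88-fold lower by the same bound.

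Rgs2, which acts with preference on the Gq class of α subunits, read 12.10, 11.98 and 10.31 on p80HT arrays 1, 2 and 3 and 12.29, 12.34 and 12.46 on the WT arrays. All p80HT arrays were under all WT arrays, by 0.19 at the closest, but most of the difference came from p80HT array 3. The difference of means was -0.90, or 1.87-fold lower in p80HT, and it was -0.32 without that array. Rgs1, a brake on B cell responses to chemokines of the follicle, read 11.33, 11.36 and 10.68 in p80HT and 11.27, 11.48 and 11.52 in WT. Only p80HT array 3 stood below the WT range, and the difference was -0.30, or -0.08 without that array.

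Rgs18, an R4 gene of blood cells best known from platelets, read 8.91, 8.55 and 7.71 in p80HT and 8.42, 8.62 and 8.77 in WT. The p80HT arrays lay above, within and below the WT range, and the difference of -0.21 became 0.13 without p80HT array 3. Of the 4 measured members of the cluster on chromosome 1, the differences were therefore -0.90 for Rgs2, -2.44 for Rgs13, -0.30 for Rgs1 and -0.21 for Rgs18, and without p80HT array 3 they were -0.32, -3.15, -0.08 and 0.13. Rgs21, which lies between Rgs1 and Rgs18 and is known from taste cells, was near background on all 6 arrays.

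Rgs16, an R4 gene that many cell types induce on activation, read 9.75, 9.52 and 9.68 in p80HT and 9.14, 9.23 and 9.38 in WT. It was the only one of the 8 genes for which every p80HT array was above every WT array, by 0.14 at the closest. The means were 9.65 ± 0.12 in p80HT and 9.25 ± 0.12 in WT (SD, n = 3 each), a difference of 0.40 or 1.32-fold. Here p80HT array 3 lay between the other p80HT arrays, and the difference without it was 0.38. Rgs3, the R4 gene with the longest proteins, read 9.34, 9.26 and 9.19 in p80HT and 9.31, 9.19 and 9.12 in WT. The ranges overlapped nearly in full, the difference was 0.06, and a second probeset of Rgs3 gave -0.02.

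Rgs14 encodes a protein with an RGS domain, a Ras-binding domain and a GoLoco motif that holds inactive Gi α subunits. It read 9.22, 9.29 and 8.62 in p80HT and 9.46, 9.64 and 9.63 in WT. Every p80HT array was lower, by 0.17 at the closest, and the difference was -0.53, or 1.45-fold lower in p80HT, and -0.32 without p80HT array 3. Rgs19, also known as GAIP, which binds Gi α subunits, read 11.10, 10.85 and 10.81 in p80HT and 11.21, 11.32 and 11.19 in WT. The groups stood apart by 0.09, the smallest gap of the 5 genes that did not overlap, and the difference was -0.32, or 1.25-fold lower in p80HT, and -0.27 without p80HT array 3.

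**Figure D2:**
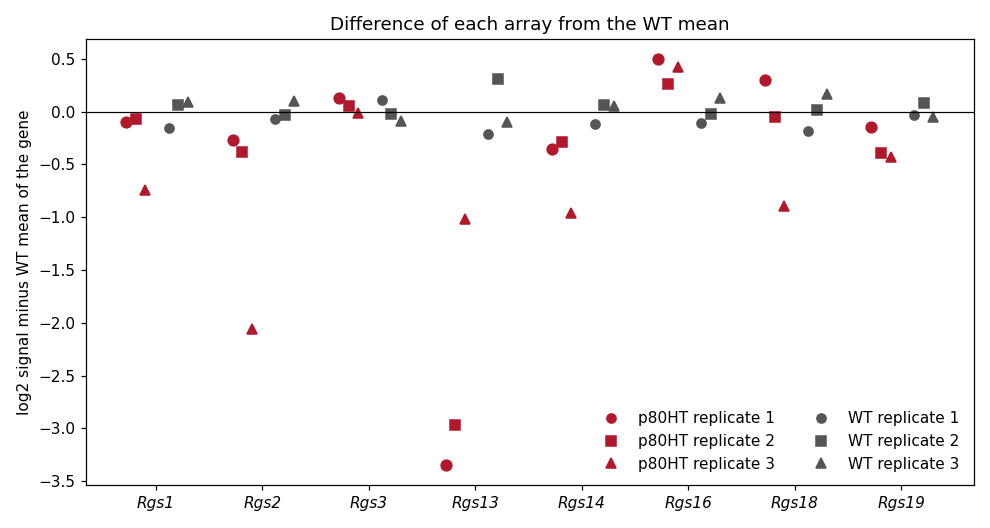
Log2 signal of each array minus the WT mean of the same gene, for the 8 measured RGS genes, with p80HT arrays left of WT arrays in each pair. Rgs13 reaches -3.35 on p80HT array 1, and for Rgs1, Rgs2, Rgs14, Rgs18 and Rgs19 the lowest point is p80HT array 3.

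In the fit across all genes, a gene was called where the groups differed by 1.5-fold or more and the unadjusted p was under 0.01. By this threshold 1 of the 8 genes was called lower, Rgs13, and none was called higher, where 0.968% of all genes were called lower and 1.22% higher. At a Benjamini-Hochberg adjusted p under 0.05 none of the 8 was called, against 0.0552% of all genes. Without p80HT array 3, Rgs13 was called at both thresholds, where 1.45% of all genes were called lower, 2.01% higher and 3.47% in either direction at the first and 4.67% at the second. Because the genes were listed from this contrast, nothing is read from these counts. The Rgs13 call was lost without WT array 1 (-2.55), without WT array 2 (-2.29) and without p80HT array 2 (-2.18). Groups did not overlap for 4 genes lower and 1 gene higher in p80HT, where 11.9% of all genes stood apart lower, 8.86% higher and 20.8% in either direction. The median difference of the 8 genes was -0.31, against -0.02 over all genes, and without p80HT array 3 it was -0.17 against 0.04.

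One array differed from the rest as a whole, that of p80HT replicate 3. It correlated with the other 5 at 0.934 to 0.943 across probesets, which are no replicates, while the others correlated with each other at 0.983 to 0.996. It held the lowest of the 6 values for 5 of the 8 RGS genes, 62.5%, and for 48.1% of all genes. The probeset designed for the mouse's own Nfkb2 read 10.57 to 10.87 in p80HT and 10.79 to 10.92 in WT. Whether it also detects the human transgene was not tested.

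Markers of B cells and of other spleen cells were read on the same arrays. All 8 measured B cell genes were above background on all 6 arrays, and so were 11 of 13 T cell, 8 of 10 macrophage and monocyte, 7 of 8 neutrophil and 5 of 7 platelet genes, so this measure does not set B cells apart from other cells. The summed signal of the B cell genes on the linear scale was 15080 to 37679 in p80HT and 42380 to 49494 in WT, lowest on p80HT array 3, and 0 of the 8 passed the threshold (2 at an unadjusted p under 0.05, 0 by ordinary analysis of variance). Their median difference was -0.56, and -0.20 without that array, and 5 of the 8 were lower on every p80HT array. Without that array 2 fell, the complement receptor Cr2 (-1.13) and the low-affinity IgE receptor Fcer2a (-0.996), both also at an adjusted p under 0.05. The B cell surface protein gene Ms4a1 (CD20) read 11.77 to 13.03 in p80HT and 12.99 to 13.12 in WT. Rgs1, Rgs2, Rgs14, Rgs18 and Rgs19 were likewise lowest on p80HT array 3, and the part of the B cell share in their values was not tested. In such bulk RNA, fewer cells of a type and less RNA per cell cannot be told apart. The 11 immediate-early genes, which respond within minutes to handling or stimulation, moved in the same way: their summed signal was 7551 on p80HT array 3, 48795 and 56727 on the other p80HT arrays, and 49486 to 56240 on the WT arrays. None of the 11 passed the threshold (1 at an unadjusted p under 0.05, 0 by ordinary analysis of variance), and without p80HT array 3 Junb fell (-0.77) and Atf3 rose (0.66). Rgs1, Rgs2 and Rgs16 are also known to respond to stimulation, and whether this bears on their values was not tested.

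Of 13 T cell genes, 4 rose (1.22% of all genes were called higher), led by Cd3g (2.03) and Cd3e (1.74), and 9 did not pass, and without p80HT array 3 there were 11 that rose (2.01% of all genes). The Cd3g call was lost without WT array 1 (1.96), 2 (2.12) or 3 (2.03) and the Cd3e call without WT array 1 (1.64). Bcl11b (0.94) and Cd28 (0.92) also rose, and both stayed called without any 1 array and by ordinary analysis of variance. For 12 of the 13 T cell genes every p80HT array was above every WT array, where 8.86% of all genes stood apart higher. The summed signal of the 13 was 13890 to 29469 in p80HT and 8608 to 10217 in WT. Of 10 macrophage and monocyte genes 1 rose, Adgre1 (0.72), a call that was lost without any 1 of the WT arrays or of p80HT arrays 1 and 2 (0.57 to 0.75), with a summed signal of 12412 to 40063 in p80HT and 9120 to 11531 in WT. Rgs1, Rgs2 and Rgs16 are known in T cells and Rgs1, Rgs2 and Rgs18 in myeloid cells as well, and the part of these cells in the RGS values was not tested. For platelets, where Rgs18 is known, 1 of 7 genes fell, Itgb3 (-1.11), where 0.968% of all genes were called lower. The differences of 5 of the 7 were positive. Of the 7, 3 were higher and 1 lower on every p80HT array, where 8.86% and 11.9% of all genes were. The sums were 2681 to 2963 in p80HT and 2283 to 3031 in WT. Without p80HT array 3 Ppbp rose as well (0.79), where 2.01% of all genes did. Of 8 neutrophil and myeloid precursor genes 0 passed (0 at an unadjusted p under 0.05 and 0 by ordinary analysis of variance). The sums were 22250, 16237 and 2095 on p80HT arrays 1, 2 and 3 and 4563 to 18148 in WT. Without p80HT array 3 there were 3 that rose, Mpo (2.28), Elane (2.10) and Ctsg (1.29), where 2.01% of all genes rose. For mast cells and basophils, where Rgs13 is known, the sums were 1332.5 to 1800.5 in p80HT and 850 to 934 in WT, with the defining genes Fcer1a, Ms4a2 and Cma1 near background on all 6 arrays and 0 of 7 genes past the threshold (4 at an unadjusted p under 0.05, 0 by ordinary analysis of variance). When p80HT array 3 was left out, 4 of the 7 rose, Mcpt8 (1.57), Cpa3 (1.00), Ms4a2 (0.63) and Kit (0.60), where 2.01% of all genes rose. The part of these cells in the Rgs13 values was not tested. The 6 gland genes were summed at 63970 on p80HT array 3 and at 808 and 833 on the other p80HT arrays, against 621 to 751 in WT, with 0 past the threshold, and at an unadjusted p under 0.05 and by ordinary analysis of variance also 0.

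Germinal centre genes were examined beside Rgs13. Of 9 measured, 2 fell, Neil1, a DNA glycosylase (-1.09), and Bcl6, the transcription factor that directs the germinal centre programme (-0.65), and 7 did not pass, with a median of -0.57, where 0.968% of all genes were called lower. The Neil1 call was lost without WT array 1 (-1.17), 2 (-1.01) or 3 (-1.11), and the Bcl6 call without WT array 2 (-0.64), WT array 3 (-0.62) or p80HT array 2 (-0.56). When p80HT array 3 was left out, 5 of the 9 fell, where 1.45% of all genes did. Gcsam, a germinal centre signalling adaptor, read 7.20, 7.02 and 8.35 in p80HT and 8.18, 8.46 and 8.07 in WT. On p80HT arrays 1 and 2 it was near background and below all WT arrays, and on p80HT array 3 within their range. The receptor S1pr2, which holds B cells in the germinal centre, read 8.45, 8.49 and 9.66 in p80HT and 9.22, 9.04 and 8.92 in WT, so p80HT array 3 was above all others. The summed signal of the 9 genes was 3730, 3531 and 7048 on p80HT arrays 1, 2 and 3 and 5287 to 5741 in WT. The members did not move together on p80HT array 3: Plxnb2 (11.11) and Fas (9.99), which gave most of the excess of its sum over p80HT array 1, and Mybl1 and S1pr2 were highest there, Neil1 was lowest of the 6 arrays (8.57), and Bcl6 (10.03) lay within the range of the other p80HT arrays. The part of germinal centre cells in the Rgs13 difference was not tested.

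The genes whose profile was most like that of Rgs13 were found by the root mean square difference between values centred on each gene's own mean, over the 6 arrays. The closest was Mybl1, the A-Myb transcription factor of germinal centre B cells, at 0.83 log2 units. It read 6.71, 6.85 and 9.68 in p80HT and 8.57, 8.86 and 8.45 in WT, near background on p80HT arrays 1 and 2 as Rgs13 was, but highest of all on p80HT array 3. The likeness of Mybl1 and Rgs13 therefore includes 2 arrays on which both were near background. Next came Stat4 (0.86), a transcription factor activated by interleukin-12, Cd209d (0.88), a C-type lectin, Pde2a (0.88), a phosphodiesterase of cyclic nucleotides, and Prag1 (0.90), a pseudokinase. Stat4 read 9.94, 9.87 and 10.72 in p80HT and 10.88, 11.35 and 11.29 in WT, and Pde2a 9.09, 8.99 and 9.74 in p80HT and 9.86, 10.57 and 10.43 in WT. Both shared with Rgs13 a p80HT array 3 that lay between the other p80HT arrays and the WT range. Prag1 read 8.48, 8.62 and 8.55 in p80HT and 9.72, 10.25 and 9.73 in WT, even among the p80HT mice, and its difference was -1.35. For Rgs13 itself, the corresponding distance of p80HT array 3 from the WT mean was -1.02, against -3.35 and -2.96 on arrays 1 and 2.

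**Figure D3:**
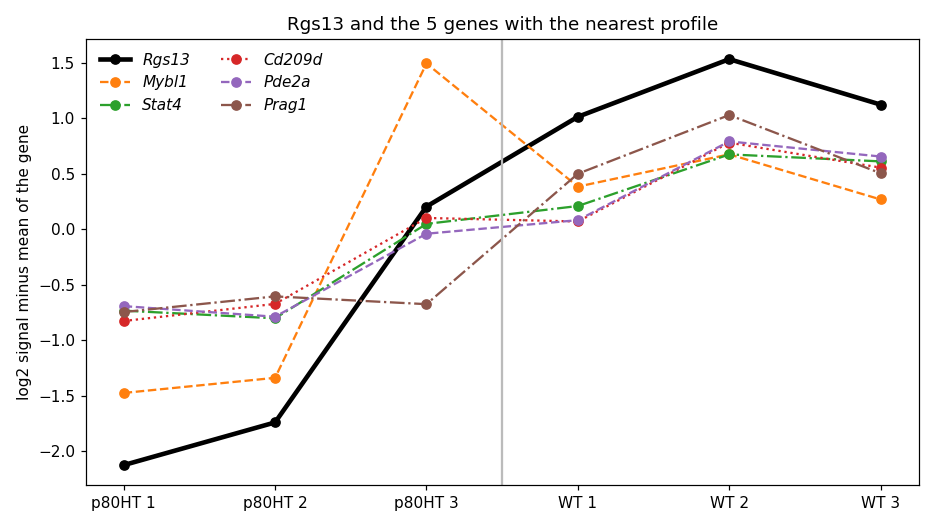
Log2 signal of Rgs13 and of the 5 genes with the most similar profile, each centred on its own mean over the 6 arrays, with p80HT arrays at the left and WT arrays at the right. Lines join the points of a gene and show no order among mice. Mybl1 rises above its WT values on p80HT array 3, whereas Prag1 is level over the p80HT arrays.

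Of the other RGS genes, 12 were measured, and 0 passed the threshold in either direction (2 at an unadjusted p under 0.05 in limma, 0 by ordinary analysis of variance), where 2.19% of all genes passed. Their median difference was 0.04. Rgs4, Rgs6, Rgs7, Rgs8, Rgs17, Rgs20, Rgs21 and Rgs22 were near background on all 6 arrays. Rgs12, the third member of the R12 family, read 7.54, 7.45 and 7.85 in p80HT and 7.22, 7.09 and 7.18 in WT. It was higher on every p80HT array, by 0.45 on average (limma adjusted p = 0.380), but only p80HT array 3 was above background. Rgs21 read 4.71, 4.61 and 4.56 in p80HT and 4.96, 4.95 and 4.92 in WT, a difference of -0.31 (limma adjusted p = 0.428) among values that were all near background. Rgs5, a gene of pericytes and vascular smooth muscle, is singled out after its values were seen: it read 6.17, 6.28 and 10.77 in p80HT and 6.37, 6.14 and 6.01 in WT. Only p80HT array 3 was above background, and without it the difference was 0.05.

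**Figure D4:**
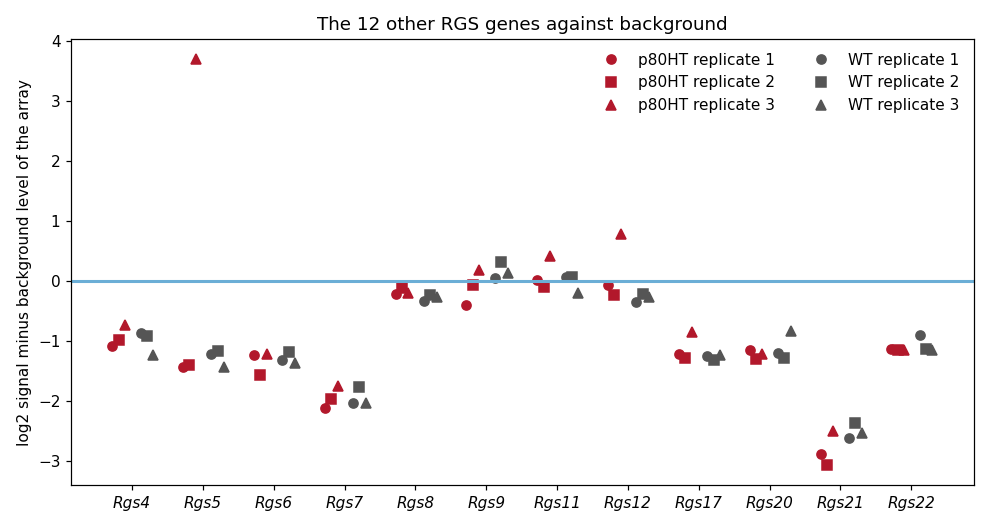
Log2 signal minus the background level of the same array for the 12 other RGS genes, with p80HT arrays left of WT arrays for each gene and a line at 0 for background. Rgs5 on p80HT array 3 is the highest point, and 8 genes lie at or under the line on all 6 arrays.

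The RGS domain also occurs, as a homology domain, in receptor kinases, sorting nexins, axins and other proteins. Of 14 such genes measured, 1 rose, 0 fell and 13 did not pass, with a median of -0.10, where 1.22% of all genes were called higher. At an unadjusted p under 0.05 in limma there were 7 of the 14, and 1 passed the threshold by ordinary analysis of variance. Of the 14, 4 were higher and 5 lower on every p80HT array than on any WT array, where 8.86% and 11.9% of all genes were. The gene that rose was Grk3, a kinase that phosphorylates active receptors and so uncouples them from G proteins. It read 9.52, 9.27 and 9.15 in p80HT and 8.70, 8.46 and 8.49 in WT, higher by 0.77 (limma adjusted p = 0.171), and it stayed called when any 1 array was left out. Without p80HT array 3 Grk3 was higher by 0.85, and the related Grk5 was called as well (0.59), where 2.01% of all genes were called higher.

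Receptors that couple to these G proteins were examined next. Of 26 receptors of B cells measured, 2 fell, 0 rose and 24 did not pass, where 0.968% of all genes were called lower. The median was -0.25, and -0.01 without p80HT array 3. Cxcr4, the receptor for CXCL12 that draws B cells to bone marrow and to the germinal centre dark zone, read 12.315, 11.838 and 11.002 in p80HT and 12.973, 13.056 and 13.002 in WT. Every p80HT array was below the narrow WT range, and the difference was -1.29 (limma adjusted p = 0.257), or -0.93 without p80HT array 3. The Cxcr4 call was lost without WT array 1 (-1.31), WT array 2 (-1.27) or WT array 3 (-1.30). Cnr2, the cannabinoid receptor of B cells, read 9.01, 9.18 and 7.87 in p80HT and 9.72, 10.12 and 10.39 in WT. Again all p80HT arrays were lower, by 1.39 on average (limma adjusted p = 0.287), and the call was lost without WT array 2 (-1.37) or WT array 3 (-1.24). Leaving out WT array 2 or 3 left 0 receptors called. Leaving out p80HT array 1 gave 4, 1 higher and 3 lower, where 489 of all 19938 genes were called in either direction. Leaving out p80HT array 3 gave 4, all lower, where 1.45% of all genes were called lower. Without p80HT array 3 the additional 2 were Gpr174, a receptor for lysophosphatidylserine (-0.82), and S1pr2 (-0.59).

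Several other receptors had differences that were smaller without p80HT array 3, although S1pr2, above, had a larger one. Gpr183, the oxysterol receptor that guides activated B cells within the follicle, read 11.82, 11.85 and 9.72 in p80HT and 12.20, 12.26 and 12.04 in WT, a difference of -1.03 that became -0.33 without that array. Ccr7, which directs B cells towards the T cell zone, read 12.97, 12.82 and 10.80 in p80HT and 13.10, 13.23 and 13.12 in WT, a difference of -0.95 that became -0.26 without that array. Cxcr5, the receptor for the follicular chemokine CXCL13, read 11.02, 10.93 and 9.84 in p80HT and 10.99, 11.23 and 11.11 in WT, a difference of -0.51 that became -0.14. The groups did not overlap for Gpr183 and Ccr7 and overlapped for Cxcr5. None of the 3 passed the threshold, and all 3 were named after their values were seen. In all, 10 of the 26 receptors were lower and 4 higher on every p80HT array than on any WT array, where 11.9% and 8.86% of all genes were.

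**Figure D5:**
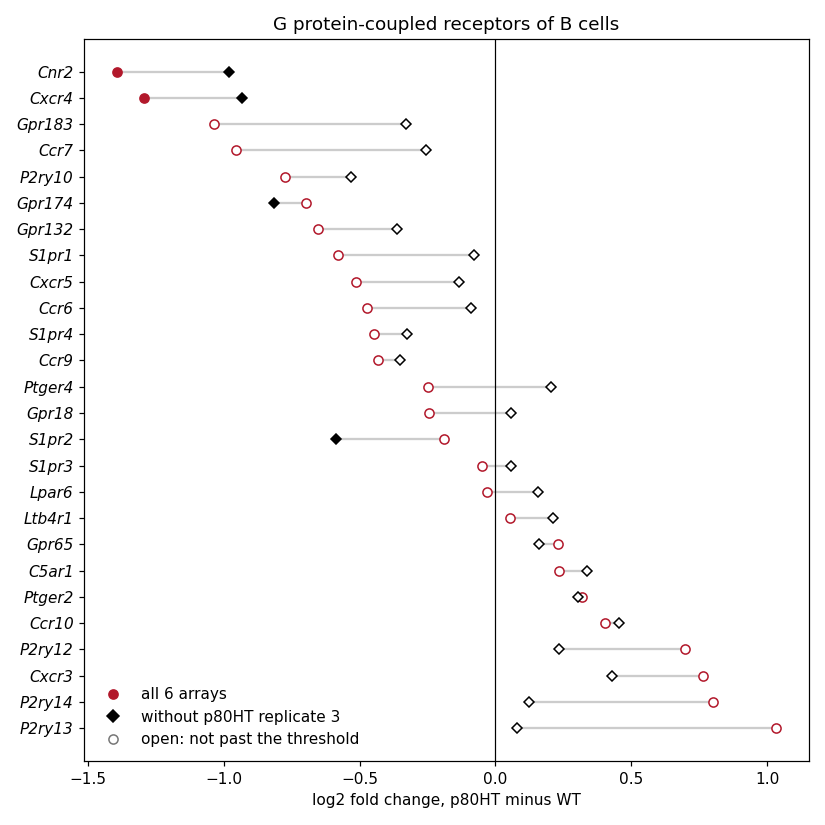
Log2 fold change, p80HT minus WT, of the 26 measured receptors, over all 6 arrays (circles) and without p80HT replicate 3 (diamonds), filled where the threshold was passed. Over all 6 arrays Cnr2 and Cxcr4 passed, and without that array Gpr174 and S1pr2 passed too.

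No G protein subunit passed the threshold, although some differed by more than 1.5-fold. Of 12 α subunits 0 passed the threshold, with a median of 0.06 and 1 at an unadjusted p under 0.05 in limma. Of 15 β and γ subunits 0 passed, with a median of 0.03 and 0 at an unadjusted p under 0.05. The smallest p among the α subunits belonged to Gna14, of the Gq class (0.33, limma adjusted p = 0.460), and Gnaz, of the Gi class (0.75, limma adjusted p = 0.572). Both were near background on 5 of the 6 arrays and above it on p80HT array 3 alone, and without that array the differences were 0.25 for each. Among the β and γ subunits they were those of Gng12 (0.80, limma adjusted p = 0.553) and Gnb5, the β subunit that pairs with the R7 family of RGS proteins (0.28, limma adjusted p = 0.576). Without p80HT array 3 the difference of Gng12 was 0.28 and that of Gnb5 was 0.16. By ordinary analysis of variance 0 of either class passed.

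Of 16 effectors of G proteins 0 passed, with a median of 0.10, 3 at an unadjusted p under 0.05 in limma and 0 by ordinary analysis of variance. Pik3r6, a subunit of the phosphoinositide 3-kinase that βγ dimers activate, was higher by 0.45 on average (limma adjusted p = 0.460), and Adcy4, an adenylyl cyclase, by 0.45 (limma adjusted p = 0.467). Of 10 other regulators of G proteins 0 passed, with a median of 0.04, 2 at an unadjusted p under 0.05 and 0 by ordinary analysis of variance. Ric8b, a chaperone of α subunits, had a difference of -0.44 (limma adjusted p = 0.412), and Rap1gap2, a GTPase-activating protein for Rap1, of 0.31 (limma adjusted p = 0.467). None of these 4 genes passed the threshold.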

How the data were processed

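The authors deposited log2 probeset signals, made with RMA in Partek Genomics Suite from 1 array per mouse, with no pooling. RMA corrects background, normalizes arrays to a common distribution and can compress differences between dim probesets. Its settings and versions are not given in the sources used here. Of 28853 probesets, 21789 were paired with 1 gene symbol by the platform annotation and were used, 1621 with several and 5443 with none. Each of 19938 genes was read from its brightest probeset by mean over the 6 arrays, a choice among several for 999 genes.

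p80HT was compared with WT, 3 mice each, by lmFit and eBayes, 2-sided, in limma 3.58.1 under R 4.3.3. A gene was called at the threshold of the study's methods (a change of 1.5-fold or more, unadjusted p under 0.01), and p-values were adjusted by Benjamini-Hochberg over all genes. Differences are p80HT minus WT. The p-values set the difference of the group means against the spread between mice, which eBayes moderates with information from all genes. An exact permutation test of 3 against 3 cannot go below 0.1. Precision is limited by the number of mice and by signal over background. The RGS genes and all gene lists were chosen with earlier results of these data known. The genes named are the 9 RGS genes, up to 4 genes past the threshold per list (or the 2 with the smallest p) and the 5 genes most like Rgs13, and others are named as values, chosen after they were seen. Lists also covered plasma cells, NK cells and dendritic cells. Of 7 plasma cell genes 1 rose, Prdm1 (0.80), where 1.22% of all genes were called higher. The differences of 5 of these 7 were positive and of 2 negative, among them Irf4 (-0.78). Of 6 NK cell genes 1 rose, Nkg7 (1.31), against the same 1.22%. That call was lost without WT array 1 (1.37), WT array 2 (1.19) or p80HT array 1 (1.33). Of 6 dendritic cell genes 0 passed (2 at an unadjusted p under 0.05 and 0 by ordinary analysis of variance). Without p80HT array 3 Itgax rose (0.83), where 2.01% of all genes did. Alternatives left out each array or changed the test, the normalization, the filter, the probeset rule or the threshold. The fit was tested on simulated data whose noise was set from the spread of the WT arrays. Those data held no deviating array like p80HT array 3, so the test does not cover that case. Python 3.11.15, pandas 2.3.3 and matplotlib 3.10.9 prepared the tables and figures.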

Additional observations from a re-analysis of the deposited data

How the results depend on the processing

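The count of RGS genes past the threshold (1, Rgs13) was 0 by ordinary analysis of variance, 0 at an adjusted p under 0.05, and 0 among genes above the 50th percentile of mean signal, where Rgs13 is not kept. Leaving out 1 array at a time gave 0 to 1. Rgs13 had a difference of -3.18 to -1.99 over its 14 alternatives and never changed direction. Rgs1, Rgs2, Rgs14, Rgs16 and Rgs19 also kept their direction in all 15 alternatives run for each. Where the groups did not overlap (Rgs2, Rgs13, Rgs14, Rgs16 and Rgs19), leaving out 1 array could not reverse the direction. A change of test alone leaves the difference as it was, so the kept direction carries little information. Rgs3 turned to -0.04 when each array was centred on its median, which moved the median of all genes to -0.12 against -0.02, and Rgs18 turned to 0.09 with array weights and to 0.13 without p80HT array 3. The receptor count (2) was 4 with median centring, 6 at an unadjusted p under 0.05 with 1.5-fold, 0 by ordinary analysis of variance and 0 at an adjusted p under 0.05, and leaving out 1 array gave 0 to 4. The count of RGS homology domain genes (1) was 2 with array weights and 0 at an adjusted p under 0.05, and leaving out 1 array gave 1 to 2. With array weights 1 of the α subunits and 1 of the other regulators were called, against 0. Where a cause is not given here, the cause was not tested. The counts of other RGS genes, βγ subunits and effectors were 0 in all 17 alternatives.

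The deviations of mice with the same replicate number from their group means correlated at 0.07, -0.24 and 0.07 across genes. With 3 arrays per group, and p80HT array 3 apart from the rest, this can neither show nor exclude a pairing of the mice. With the replicate number as a block, 1 of the 8 RGS genes was called, Rgs13, as without it, and 567 of all genes against 436. It changed no count of the other G protein and RGS lists named here, and it was not run on the marker lists. Signal near background limits the Rgs13 values of p80HT arrays 1 and 2, and 3 mice per group limit all differences.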
